A study of Mus musculus with 4 samples.

Results

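Forkhead genes encode transcription factors that share a winged-helix DNA-binding domain. The genes described here were all rows of the deposited table with a symbol made of Fox, a class letter from a to s and a number, except Foxa1, Foxa2 and Foxq1, which gave 41 genes of 51098 in the table. RNA came from stomachs of mouse embryos at E15.5 of development. The 2 groups were Fgf9_null, with the genotype Fgf9LacZ/LacZ and the treatment entry Fgf9KO, and Fgf9_het, with the genotype Fgf9LacZ/+ and the treatment entry control. By these genotype entries every sample carried at least 1 LacZ allele of Fgf9, a fibroblast growth factor gene, and none was wild type, although the titles of the Fgf9_het samples call them WT. Each group had 2 samples, numbered 2 and 3, of whole stomach RNA depleted of ribosomal RNA, and the labels do not say whether a sample was 1 embryo or a pool.

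Fgf9 itself had 133 reads in the column numbered 2 and 131 in the column numbered 3 under the Fgf9_null label, and the same under the Fgf9_het label, so the targeted gene does not separate the labels. Outside a few structured RNA genes such as Rn7s1, the columns of the same number held nearly the same counts under both genotype labels, and no more than 97 genes of a pair differed by over 10 reads. Over the 27 forkhead genes with at least 10 reads in both libraries together, chi-square divided by its degrees of freedom came to 0.000940 between the Fgf9_null and Fgf9_het columns numbered 2 and 0.000397 between those numbered 3, whereas it came to 4.80 between columns of different number. Same-numbered columns thus lay closer together than sampling noise allows for separate libraries and were counted as 1 sample, so the 4 columns hold 2 libraries, library 2 and library 3, whose genotypes are not resolved. Levels are given as CPM (a column's reads scaled to 1e+06 in all, averaged over the columns of a library) and as mean ± SD over n = 2 libraries. The column totals lay between 19269851 and 22713416, and the detection floor used here, 3 counts, was worth 0.132 to 0.156 CPM. All 6 markers of stomach mesenchyme and smooth muscle and all 7 of glandular epithelium reached 1 CPM in both libraries. Markers of other organs were unevenly present, and several of the sums below rest mainly on 1 gene. The 6 liver markers summed to 35.1 CPM in library 2 against 58.9 in library 3, and the 4 of them at 1 CPM or more had a median fold of library 2 over library 3 of 0.544. The kidney markers summed to 42.4 CPM in library 2 against 58.1 in library 3. Of that sum Six2 alone held 36.0 against 49.5 CPM, and 2 of 5 kidney markers reached 1 CPM in both libraries. The spleen markers summed to 6.34 CPM in library 2 against 8.42 in library 3. Only 1 of these 4 reached 1 CPM in both, Nkx3-2 at 5.51 against 8.06. The lung and thyroid markers summed to 1.18 against 0.757 CPM, with 0 of 6 at 1 CPM in both. Of 6 pancreas markers, 2 reached 1 CPM in both libraries, Nkx6-1 at 16.4 CPM in library 2 against 9.84 in library 3 and Cela1 at 3.66 against 4.96. The gonad, forebrain and eye, and intestine markers summed to 89.6, 15.6 and 23.2 CPM in library 2 against 92.7, 16.5 and 22.4 in library 3. Of these sums Sox9, Dlx1 and Vil1 alone held 86.8, 15.2 and 22.7 CPM in library 2 against 89.8, 16.2 and 22.0 in library 3. Those at 1 CPM in both libraries were 2 of 5 gonad, 1 of 7 forebrain and eye, and 1 of 4 intestine markers.

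In the developing gut, epithelial cells secrete Hedgehog ligands, and the underlying mesenchyme responds by expressing Foxf1, Foxf2 and Foxl1, which are needed for mesenchymal growth and for signals back to the epithelium. Other forkhead classes act in most tissues: FoxO proteins are kept out of the nucleus by insulin and AKT signalling, FoxP and FoxK proteins mostly repress transcription, and Foxm1 drives genes of mitosis. What unites the family is a helix of the forkhead domain that enters the major groove of DNA. The coding stretch of that helix was sought with a fixed pattern of residues and found in 39 of the 41 genes, all but Foxr1 and Foxr2. Part of the likeness among the stretches was thus set by the search, and a gene without a match may still encode the helix. The stretch is shown for 9 members to let the classes be compared. The sequences are coding strand, 5′ to 3′, 27 bases each, from the GENCODE M21 transcripts of GRCm38, and capitals mark bases that differ from the commonest base at that place among the 23 members at 1 CPM or more.
Foxf1: aactccGtGcgccacaacctgtcGctC
Foxf2: aactccGtGcgccacaacctCtcGctC
Foxl1: aacAGcatccgccacaacctgtcGctC
Foxp4: aaTGccGtGcgccacaacctCAGcctg
Foxo3: aactccatccgGcacaacctgtccctg
Foxk2: aaTtcAatTcgccacaaTctCtcTctg
Foxm1: aactcTatTcgTcacaacctTtcTctC
Foxn3: aactcAGtGAgAcacaacTtgtcATtg
Foxa3: aactccatccgGcaTTCGctgtccTtC

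Between 14 and 26 of the 27 bases matched the commonest base in the 23 members at 1 CPM or more, with Foxo3 highest. The encoded residues were the same in 23 members, among them Foxo3, Foxk1, Foxk2, Foxl1, Foxc1, Foxc2, Foxd3, Foxj1 and Foxm1. A second set of 6 members, Foxf1, Foxf2 and the 4 FoxN members, also shared their residues.

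Forkhead transcripts were present at 1 CPM or more in both libraries for 23 of the 41 genes, or 56.1%, against 32.7% of all genes in the table and 65.8% of protein-coding genes. A further 6 genes had no read in any column, and 12 had no more than 3 reads in either library, including those 6. The 41 genes together made up 1633 CPM in library 2 against 1641 in library 3. By share of reads, with no allowance for length, Foxp4, Foxp1, Foxo3, Foxp2 and Foxf1 held 52.4% of that sum, and the 10 genes with most reads held 81.9%. In bulk tissue, fewer cells of a type and less RNA per cell cannot be told apart, which applies to every level and difference below.

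**Figure D1:**
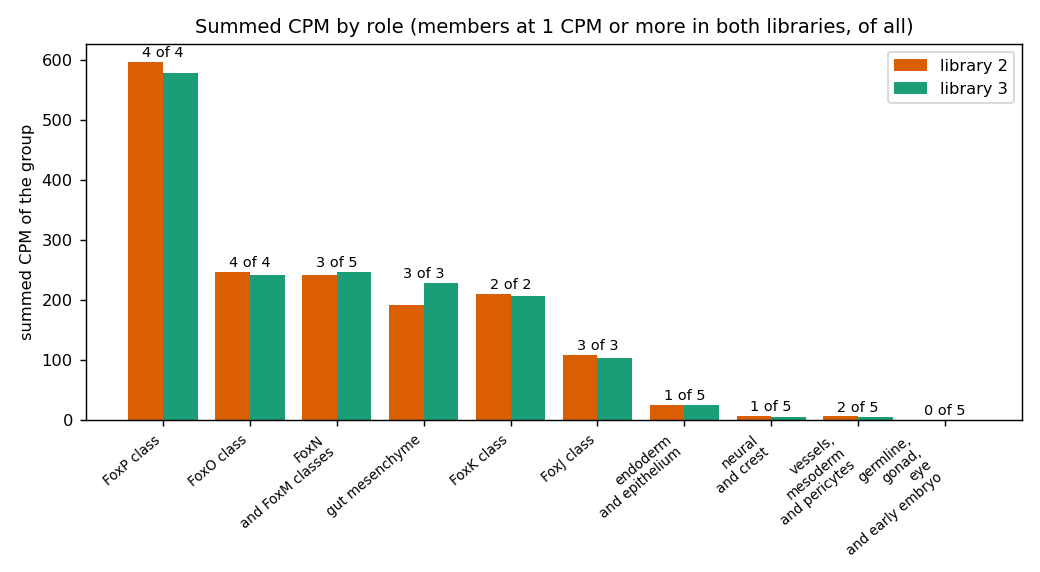
Summed CPM of each forkhead group (y axis) in library 2 and library 3 (bars), with the number of members that reached 1 CPM in both libraries above each pair. With no allowance for length, the 4 FoxP genes stand highest at 597 CPM in library 2 against 578 in library 3. The gut mesenchyme group has the widest gap in CPM, at 192 CPM in library 2 against 228 in library 3.

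Levels of different genes were compared per kilobase of the union of annotated exons, because longer transcripts yield more reads. Foxf1 and Foxp4 led on this scale, each at a mean of 49.6 CPM per kilobase. Foxf1 ranged from 46.1 to 53.0 CPM per kilobase over the libraries, a range that includes the 49.6 of Foxp4, so the order of the pair was not resolved. Foxf2 followed at 28.9 ± 4.80 and Foxo3 at 20.2 ± 0.316 CPM per kilobase, each range clear of its neighbours. Foxk2, Foxm1, Foxk1, Foxp1, Foxa3 and Foxn3 lay at 18.4, 15.2, 14.7, 14.6, 11.3 and 10.3 CPM per kilobase, and the range of Foxp1, 13.9 to 15.3, overlapped those of Foxk1 and Foxm1, so its order against either was not resolved. Foxo4 at 9.35 and Foxj2 at 9.24 overlapped, as did Foxp2 at 8.52 and Foxl1 at 8.11, and Foxn2 at 5.02 and Foxj3 at 4.99, with Foxo1 at 6.19 CPM per kilobase above the last pair. Foxd3 at 2.55 and Foxo6 at 2.20 CPM per kilobase came next, and the members below them did not reach 1 CPM per kilobase. The order depends on the length used for genes with many transcript forms. With the median length of the coding transcripts, Foxp2 stood at 101 and Foxp1 at 99.5 CPM per kilobase, above Foxp4 at 76.5, Foxn3 at 71.3 and Foxf1 at 49.6. With the longest coding transcript, Foxp4 stood at 61.1 and Foxp1 at 28.0 CPM per kilobase.

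**Figure D2:**
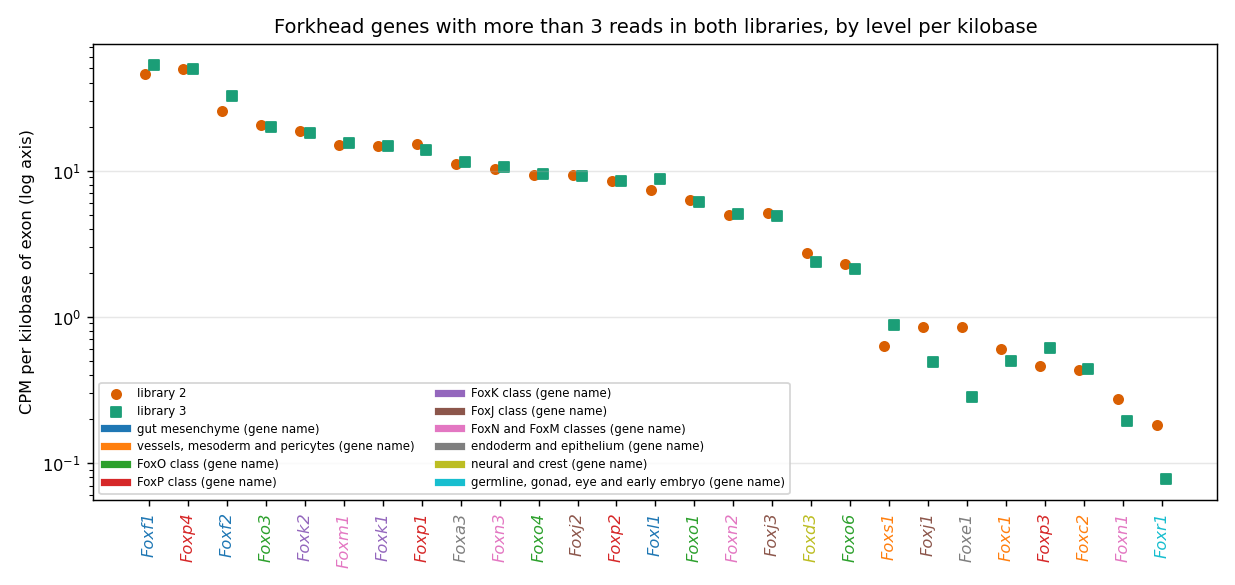
CPM per kilobase of exon on a log axis (y) for each of the 27 forkhead genes with more than 3 reads in both libraries (x, ordered by mean, name coloured by group), with library 2 as circles and library 3 as squares. Levels step down from 49.6 CPM per kilobase for Foxf1 and Foxp4 to 2.20 for Foxo6, and the circles and squares part visibly for Foxe1, Foxr1 and Foxj1 among the low genes.

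All 3 gut mesenchyme genes were expressed, and each was lower in library 2 than in library 3. Foxf1 (ENSMUSG00000042812, GRCm38 chromosome 8, 121084386 to 121088144, plus strand), which mesenchyme of the gut and lung needs in the mouse embryo, had 2162 and 2886 reads in the Fgf9_null columns numbered 2 and 3, and 2162 and 2889 reads in the Fgf9_het columns. This was 111 CPM in library 2 against 128 in library 3, a fold of library 2 over library 3 of 0.871, with an exact 95% interval of 0.823 to 0.921 that covers counting error only. Foxf2 (ENSMUSG00000038402, chromosome 13, 31625816 to 31631403, plus strand), its close relative, had 60.2 CPM in library 2 against 76.3 in library 3, a fold of 0.790 (0.733 to 0.852). Foxl1 (ENSMUSG00000097084, chromosome 8, 121127940 to 121130644, plus strand), which marks mesenchymal cells beneath the epithelium, had 20.1 CPM in library 2 against 23.8 in library 3, a fold of 0.843 (0.740 to 0.964). The 3 intervals lay below 1, but library 2 and library 3 are 1 sample each, so no test of the difference is possible. The 6 markers of stomach mesenchyme and smooth muscle summed to 5529 CPM in library 2 against 5768 in library 3, 4 of them higher in library 3 and none at 0. Other cell types also differed between the libraries. The 7 endothelial genes summed to 293 CPM in library 2 against 330.0 in library 3, with a median fold of 0.922. They did not move as 1, with 5 higher in library 3 and 2 in library 2. The 7 mural cell genes summed to 1067 CPM in library 2 against 1123 in library 3, with a median fold of 0.912, 6 higher in library 3 and 1 in library 2. The 5 forestomach squamous markers summed to 557 CPM in library 2 against 318 in library 3, with a median fold of 1.72. The part of these cell types, and of the liver genes, in the Foxf and Foxl1 values was not tested.

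Genes of the Hedgehog pathway and its mesenchymal targets were measured beside them. All 13 listed genes reached 1 CPM in both libraries, 9 of them higher in library 3, with a median fold of library 2 over library 3 of 0.935 against 1.01 over all genes at that level. Ptch1, the Hedgehog receptor and a target of the pathway, had 427 CPM in library 2 against 458 in library 3. Smo, the transducer, was higher in library 2, with 185 CPM in library 2 against 168 in library 3.

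Some forkhead genes lie in pairs and clusters, and neighbours differed widely in level in some of these but not all. Foxd2 and Foxe3, 16.3 kilobases apart on chromosome 4, were both low, at 0.0767 and 0 CPM per kilobase. On chromosome 8 the genes run Foxf1, Foxc2, Foxl1, with gaps of 28.0 and 9.04 kilobases. Foxc2, an endothelial and lymphatic valve factor, stood at 0.437 CPM per kilobase between Foxf1 at 49.6 and Foxl1 at 8.11. On chromosome 13 the genes run Foxq1, Foxf2, Foxc1, with gaps of 64.8 and 175 kilobases. Foxf2 stood at 28.9 and Foxq1, expressed in gastric epithelium, at 23.9 CPM per kilobase, against 0.548 for Foxc1. The noncoding RNA gene Fendrr starts 1276 bases from the start of Foxf1 on the opposite strand and shares no exon base with it. Fendrr had 91.8 CPM in library 2 against 100.1 in library 3, a fold of 0.917 (0.861 to 0.976), beside 0.871 for Foxf1. The noncoding gene 1700018A04Rik starts 24 bases from Foxf2 on the opposite strand and had 6.85 CPM in library 2 against 6.69 in library 3, a fold of 1.02 (0.805 to 1.30) beside 0.790 for Foxf2.

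**Figure D3:**
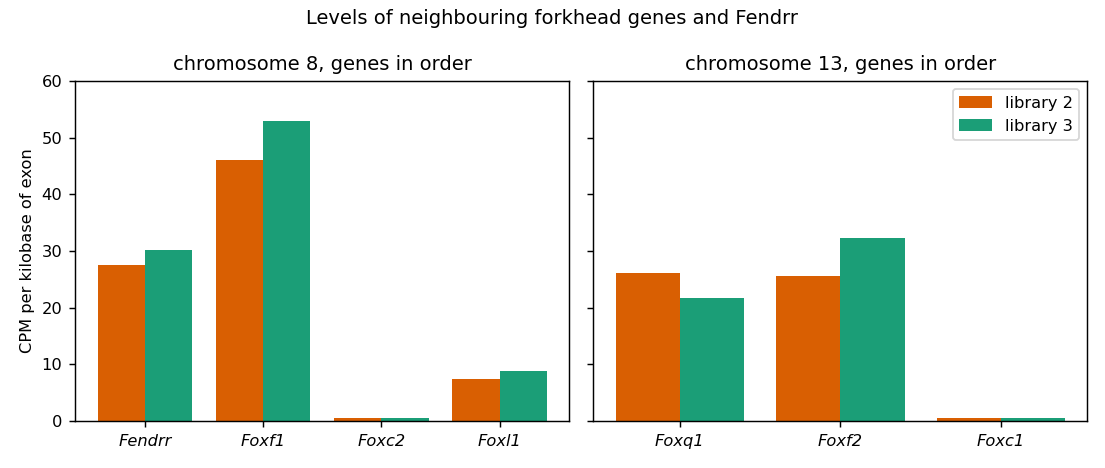
CPM per kilobase of exon (y axis, from 0) in library 2 and library 3 (bars) for neighbouring genes of chromosome 8 (left) and chromosome 13 (right), in their order on the chromosome. Foxc2 and Foxc1 are close to 0 beside Foxf1, Foxl1, Foxf2 and Foxq1, and Fendrr follows Foxf1 in being higher in library 3.

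The FoxP class held the largest summed CPM of the family, and 3 of its 4 genes were abundant. That sum makes no allowance for length. Foxp1 and Foxp2 have 13.8 and 16.3 kilobases of exon, against 2.42 for Foxf1, so the sum does not order the classes per kilobase. Foxp4 (ENSMUSG00000023991, chromosome 17, 47867133 to 47924645, minus strand), a repressor that acts in lung and foregut epithelium, had 4745 reads in library 2 and 5519 in library 3, which was 245 CPM in both, a fold of 1.000 (0.962 to 1.04). Foxp1, known from lung, heart and lymphocytes, had 211 CPM in library 2 against 192 in library 3, a fold of 1.10 (1.05 to 1.15). Foxp2, known from lung and from brain circuits for vocal behaviour, had 139.5 CPM in library 2 against 139 in library 3. Foxp1 was thus the only one of the 3 abundant members with an interval clear of 1.

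Foxp3, the factor of regulatory T cells, was near the lower end, with 41 reads in library 2 and 63 in library 3. Its level of 2.12 CPM in library 2 against 2.80 in library 3 cannot be assigned to Foxp3 alone. Its exons overlap those of the noncoding gene Flicr by 853 bases on the same strand, and those of Ccdc22, Gm36995 and Ppp1r3f by 590, 373 and 266 bases on the other strand. Ccdc22 had 17.8 CPM in library 2 against 19.9 in library 3, and whether the counting used strand is not stated. Of 9 listed T cell genes, 2 reached 1 CPM in both libraries, Ikzf2, a factor shared with other cells, at 26.7 CPM in library 2 against 21.2 in library 3, and Ptprc, a gene of all white blood cells, at 7.68 against 7.89. The T cell receptor complex genes Cd3e and Cd3g had 0 reads in library 2 and 1 in library 3, Cd3d had 5 in each, and Ctla4 had none. Cd4 had 17 reads in library 2 and 28 in library 3, Cd8a had 11 and 22, and Il2ra had 16 and 9. The 9 genes summed to 36.9 CPM in library 2 against 32.1 in library 3, and their part in the Foxp3 value was not tested. The 10 listed partners of FoxP and FoxK proteins all exceeded 1 CPM, with the corepressor gene Ctbp1 at 193 ± 6.01 and the NuRD subunit gene Gatad2b at 148 ± 4.57 CPM.

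All 4 FoxO genes were expressed at more than 5 CPM in both libraries. Foxo3, which restrains growth and promotes stress resistance when AKT is quiet, had 155 CPM in library 2 against 151 in library 3. Foxo1, a mediator of insulin signals, had 54.5 CPM in library 2 against 52.8 in library 3, and Foxo4 had 32.3 CPM in library 2 against 32.9 in library 3. Foxo6, best known from brain, had 5.95 CPM in library 2 against 5.54 in library 3. The folds of library 2 over library 3 ran from 0.983 for Foxo4 to 1.07 for Foxo6, and all 4 counting intervals included 1. An antisense gene, Gm20402, overlaps Foxo1 exons by 674 bases, but at 1.57 ± 0.477 CPM it was small beside Foxo1. The 24 listed upstream regulators and targets of FoxO all reached 1 CPM in both libraries, 11 higher in library 2 and 13 in library 3. The 2 with the highest CPM were Ywhaz and Ywhae, which encode 14-3-3 proteins that hold FoxO proteins in the cytoplasm, at 501 ± 11.4 and 387 ± 28.1 CPM.

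The FoxK and FoxJ classes were represented by broadly expressed members. Foxk1 and Foxk2, repressors linked to metabolism and autophagy, had 111 and 98.4 CPM in library 2 and 112 and 94.8 CPM in library 3. Foxj3 had 56.0 CPM in library 2 against 53.6 in library 3, and Foxj2 had 49.8 CPM in library 2 against 48.9 in library 3. The counting intervals of these 4 genes all included 1. Foxj1 (ENSMUSG00000034227, chromosome 11, 116330704 to 116335399, minus strand), the regulator of motile cilia, was low, with 43 reads in library 2 and 29 in library 3. This was 2.22 CPM in library 2 against 1.28 in library 3, a fold of 1.72 (1.05 to 2.86). Of 18 motile cilia genes in the table, 8 reached 1 CPM in both libraries, 3 of them higher in library 2 and 5 in library 3, with a median fold of 0.972. The 2 with the highest CPM were Rfx3 and Rfx2, which also act outside motile cilia, at 37.5 ± 1.46 and 20.6 ± 0.407 CPM. Both are among the 8, and the median leaves out the cilia genes below 1 CPM in either library. The part of motile cilia genes in the Foxj1 value was not tested.

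Of the FoxN and FoxM classes, 3 of 5 genes reached 1 CPM in both libraries. Foxn3, a repressor linked to cell cycle checkpoints, had 117 CPM in library 2 against 121 in library 3, and Foxn2 had 36.6 CPM in library 2 against 37.3 in library 3. Foxm1 had 86.1 CPM in library 2 against 88.6 in library 3, a fold of 0.972 (0.910 to 1.04). Its listed partners and mitotic targets were all at 1 CPM or more, 5 of 20 higher in library 2 and 15 in library 3, with a median fold of 0.962. Over all genes at that level in both libraries, 45.8% were higher in library 3, and the median fold was 1.01. The part of Foxm1 in the values of this list was not tested. Cenpf and Cenpe, kinetochore genes, led the list at 133 ± 2.99 and 84.4 ± 1.86 CPM. Rhno1, a DNA damage response gene that starts 56 bases from Foxm1 on the opposite strand, had 35.4 CPM in library 2 against 34.2 in library 3, a fold of 1.03 (0.933 to 1.15).

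Foxn1, the factor of thymic epithelium and of hair and skin keratinocytes, had 17 reads in library 2 and 14 in library 3, or 0.876 CPM in library 2 against 0.620 in library 3. Of the 5 thymic epithelial genes listed with it, 3 reached 1 CPM in both libraries. Ccl25, a chemokine gene that intestine also expresses, stood at 15.6 ± 1.06 CPM and Cd83 at 4.92 ± 0.435 CPM. Psmb11 was barely above the limit, with 1.77 CPM in library 2 against 1.49 in library 3. Prss16 had 9 reads in library 2 and 4 in library 3, and Pax1 had 0 and 1. Foxn4, a factor of retinal progenitors, had 4 reads in library 2 and 0 in library 3.

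Among endodermal and epithelial members, Foxa3 was the one expressed well in both libraries. Foxa3, a relative of Foxa1 and Foxa2 known from liver and gut endoderm, had 22.7 CPM in library 2 against 23.4 in library 3, a fold of 0.967 (0.851 to 1.10). At 11.3 CPM per kilobase it lay between Foxa1 at 47.5 and Foxa2 at 6.66 CPM per kilobase. Foxe1 (ENSMUSG00000070990, chromosome 4, 46343609 to 46346412, plus strand), a factor of the thyroid and of squamous epithelium of the pharynx and oesophagus, had 46 reads in library 2 and 18 in library 3. This was 2.37 CPM in library 2 against 0.798 in library 3, a fold of 2.97 (1.69 to 5.45), and the interval lay above 1. All 5 forestomach squamous markers were higher in library 2 as well, with none at 0 and the median fold of 1.72 given above. Their part in the Foxe1 value was not tested. Foxq1, left out of the set, had 126 CPM in library 2 against 105 in library 3, a fold of 1.20 (1.14 to 1.27).

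The 3 FoxI genes were at or under the floor. Foxi1, the factor of ionocytes in kidney and inner ear, had 2 reads in library 2 and 1 in library 3, and Foxi2 and Foxi3 had none, which allows up to 0.156 CPM per column. Of 7 acid-secreting and ionocyte genes, 2 reached 1 CPM in both libraries, the chloride channel gene Cftr at 10.5 ± 1.52 CPM and the anion exchanger gene Slc4a1, also a red cell gene, at 8.87 ± 2.19 CPM.

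Members of vessels, mesoderm and pericytes were low. Foxc1, which acts in endothelium and in the eye, had 68 reads in library 2 and 66 in library 3, or 3.50 CPM in library 2 against 2.90 in library 3. Foxc2 had 1.19 CPM in library 2 against 1.20 in library 3. Foxs1, a gene of pericytes, had 16 reads in library 2 and 26 in library 3, with a fold of 0.716 (0.359 to 1.39). The counting intervals of all 3 genes included 1. Foxd1, the factor of kidney stroma and pericytes, had 1 read in library 2 and 0 in library 3, and Foxd2 had 6 reads in library 2 and 2 in library 3. Genes listed for these cell types were expressed, though whether their reads came from those cells was not tested. All 7 endothelial genes exceeded 1 CPM, led by Cdh5 at 104 ± 14.1 and Kdr at 78.7 ± 6.25 CPM, as did all 7 mural cell genes, led by Notch3 at 276 ± 13.6 and Des at 214 ± 18.5 CPM. Of the mural genes, 6 of 7 were higher in library 3, and Des went the other way, with a fold of library 2 over library 3 of 1.13 (1.08 to 1.18).

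Foxd3, the neural crest factor, was the one neural or crest member above 1 CPM. It had 122 reads in library 2 and 125 in library 3, or 6.31 CPM in library 2 against 5.54 in library 3, a fold of 1.14 (0.877 to 1.47). The 8 listed crest and enteric neuron genes all reached 1 CPM, 4 higher in each library, with Erbb3 at 159 ± 1.39 and Ednrb at 86.7 ± 5.12 CPM. Foxb1, Foxb2 and Foxd4 had no read.

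No germline, gonad, eye or early embryo member reached 1 CPM. Foxr1 had 8 reads in library 2 and 4 in library 3, Foxr2 had 2 reads in library 2 and 0 in library 3, and Foxh1, the partner of SMAD proteins in Nodal signalling, had 1 read in each. Foxl2, the factor of ovarian granulosa cells, had 0 reads in library 2 and 1 in library 3, and Foxe3, a lens factor, had none.

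The genotype labels set stomachs without Fgf9 against heterozygous ones. Forkhead genes had nearly identical counts under both labels. The test kept 26 of the 41 genes after its filter on low counts, and edgeR's quasi-likelihood test called 0 of them at an adjusted p under 0.05, with 0 at an unadjusted p under 0.05. Over the whole table the test called 0 of 19987 genes, or 0%, and 4 genes, or 0.0200%, had an unadjusted p under 0.05. DESeq2 and limma-voom also called 0 of the 26, while over the whole table they called 3 and 0 genes. Among the members, Foxp3 had the largest absolute log2 fold, Fgf9_null over Fgf9_het, of 0.0147 (SE 0.234) at an edgeR adjusted p of 1.00. Counts were equal within 0.001 reads under both labels for 22 of the 35 members with a read in the columns numbered 2 and for 21 of 35 in those numbered 3. The largest gap was 6 reads, for Foxp4, which had 5516 reads in the Fgf9_null column and 5522 in the Fgf9_het column numbered 3. Because each library stands under both labels, these values measure no effect of Fgf9.

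**Figure D4:**
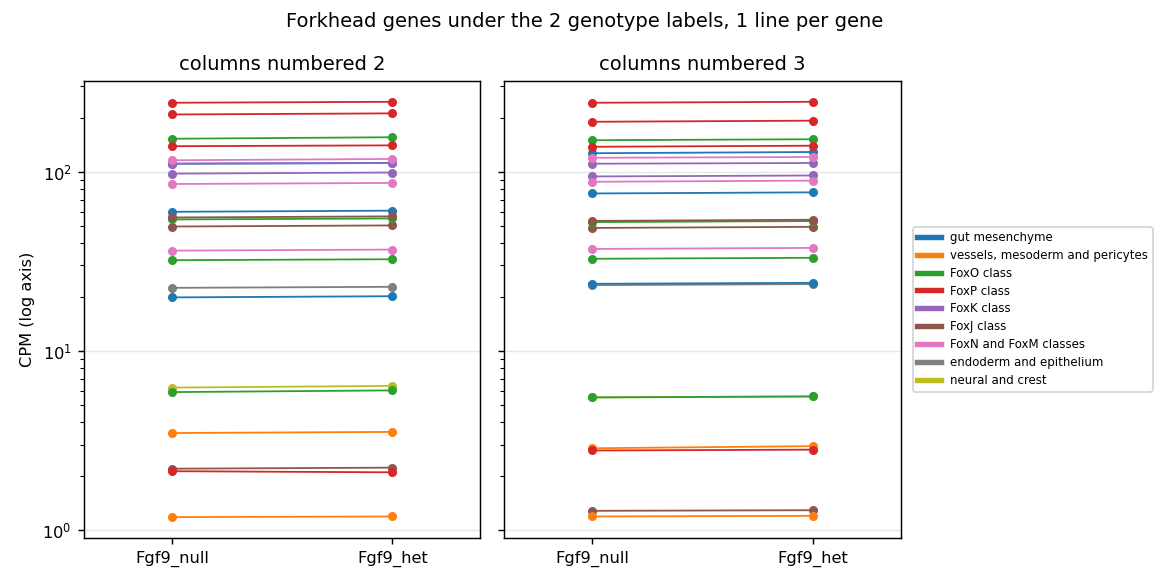
CPM on a log axis (y) of the 23 forkhead genes that reached 1 CPM in both libraries, under the Fgf9_null label (left in each panel) and the Fgf9_het label (right), 1 line per gene coloured by group, for the columns numbered 2 (left panel) and 3 (right panel). The lines are nearly level, and no gene differed by more than 6 reads.

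The 2 libraries were then set side by side for the whole family, without a test. Of the 23 genes that reached 1 CPM in both libraries, 11 were higher in library 2 and 12 in library 3, against 54.2% and 45.8% of the 16712 genes at that level. Directions of Foxj2, Foxk1, Foxp2 and Foxp4 turned under another scaling or with the columns of 1 label. The median fold was 1.000 for the 23 genes and 1.01 for all 16712. Regardless of direction, the median gap was 1.03-fold for forkhead genes and 1.08-fold for all genes. Counting error widens gaps for genes with few reads, and the sets were not matched for reads. Nothing particular to forkhead genes can be read from this gap or from the shares that follow. Beyond 1.5-fold there was 1 forkhead gene, Foxj1, which is 4.35% of 23, against 3.88% of all genes. By direction, 1 was higher in library 2, against 2.52% of all genes, and 0 in library 3, against 1.36%. Beyond 2-fold there were 0 of 23, against 0.521% of all genes, and beyond 0.32 on the log2 scale there were 3, against 14.6%. Foxe1, at 2.97-fold, stood outside these counts because its level in library 3 was below 1 CPM. Among the 19 members at 5 CPM or more in both libraries, none passed 1.5-fold.

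**Figure D5:**
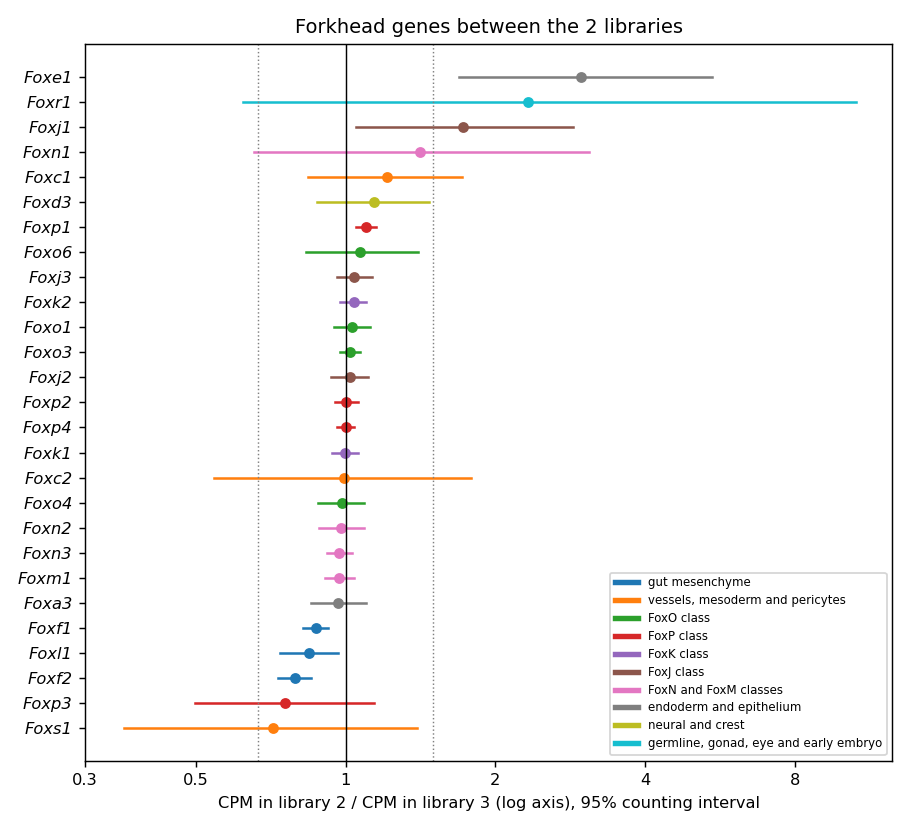
Ratio of CPM in library 2 to CPM in library 3 on a log axis (x) for each of the 27 forkhead genes with more than 3 reads in both libraries (y), with exact 95% counting intervals as lines coloured by group, a solid line at 1 and dotted lines at 1.5-fold either way. Foxf1, Foxf2 and Foxl1 lie below 1 with their intervals, and Foxe1, Foxj1 and Foxp1 lie above 1 with theirs.

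Expressed forkhead genes were mostly those with several exons. Of the 20 members whose coding transcripts reach 3 or more exons, 15 were at 1 CPM or more in both libraries, with a median of 7.36 CPM per kilobase. Of the 9 members with 2 exons, 4 were at that level (Foxf1, Foxf2, Foxa3 and Foxo6), with a median of 0.0313 CPM per kilobase. Of the 12 with 1 exon, 4 were (Foxl1, Foxd3, Foxc1 and Foxc2), with a median of 0.257 CPM per kilobase. The same shares over all genes were not computed, so nothing particular to forkhead genes can be read from these. All 6 genes with no read had 1 or 2 exons.

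Promoter windows of 250 bases before to 50 bases after a start, from RefSeq on GRCm38.p6, were found for 26 of the 41 genes, 29 windows in all. Their median GC content was 63.0%, against 52.7% over 32851 windows of all genes, and their median ratio of observed to expected CpG was 0.667 against 0.384. Windows of members at 1 CPM or more had a median GC content of 68.2% and those of members below it 60.3%. Motifs were searched on both strands. The forkhead motif TGTTTAC was in 0 of 29 windows, against 3.65% of all windows, and TGTTTAT was in 3 windows, or 10.3%, against 4.60%. Those 3 windows were 2 of Foxp1 and 1 of Foxp3. The core motif of GLI, the Hedgehog pathway's transcription factors, TGGGTGGTC, was in 0 of 29 windows against 0.253% of all. Foxf1, Foxl1 and Foxm1 were not among the matched genes.

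Related members share stretches of sequence that a counter could divide between them. Of the 41 genes, 24 shared at least 1 run of 31 bases with another member, but such runs made up at most 2.96% of a gene's runs of that length, in Foxd3. Foxf1 and Foxf2 had a coding run of 41 bases in common, and Foxd3 and Foxd4 one of 68 bases. They are shown because they bear on those counts, with capitals marking the part of each pair's helix stretch that they hold.
Foxf1 and Foxf2: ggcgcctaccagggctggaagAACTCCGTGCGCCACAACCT
Foxd3 and Foxd4: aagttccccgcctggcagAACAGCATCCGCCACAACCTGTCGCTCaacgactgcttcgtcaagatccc

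Foxd4 had no read although it shares this run with Foxd3, which had 122 reads in library 2 and 125 in library 3. Exons of 12 members overlapped those of another gene in the annotation, and for 6 of these, Foxe1, Foxj2, Foxm1, Foxo1, Foxp1 and Foxp3, the other gene had reads. Only Foxp3 had overlapping genes with a higher CPM than its own, the 3 on the opposite strand, while Flicr, on the same strand, was lower at 1.39 CPM in library 2 against 1.60 in library 3.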

How the data were processed

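Per the labels' protocols, ribosomal RNA was removed from stomach RNA with RNase H, cDNA was primed by random hexamers, and both ends of the fragments were sequenced. The submitters' processing notes name edgeR, Salmon 1.8.0, Trimmomatic 0.33 and FastQC 0.10 as tools without their roles, and as builds mm10 and GRCm38. The sources used here do not give the strand setting, the annotation or how transcripts were summed to genes. In the table as deposited, values are estimated counts for each gene with no scaling to depth. Its 4 named columns were matched to samples by title. A further 2 columns of values have no name and were not used. Values with a fractional part made up 28.5% to 29.1% of each column.

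Samples were grouped by genotype. The titles call the Fgf9_het samples WT, and the genotype entry was followed. Replicate numbers came from the titles. After subtraction of group means, same-numbered columns correlated at 0.999 over 16712 genes on log2(CPM + 1), so the numbers pair columns of 1 library. The labels do not show which of a pair of columns a library was deposited for.

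CPM used column totals. Lengths and positions came from GENCODE M21 (GRCm38), where 50870 of 51098 genes were found by identifier. Ratios between libraries have exact conditional binomial 95% intervals, which, like the 3-count floor, take in counting error alone. Labels were compared with edgeR 4.0.16 in R 4.3.3 on counts rounded to whole numbers (TMM, filterByExpr, quasi-likelihood F test, Benjamini-Hochberg over all genes, threshold 0.05), and with DESeq2 1.42.0 and limma 3.58.1 as alternatives. Nothing says that samples came from separate embryos, so p-values reflect no more than column-to-column spread. The edgeR step was run on simulated data in which every column was a separate library. The columns here are not, so that run does not bear on the comparison of labels.

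The forkhead set, the groups and the lists were chosen with earlier results of these data known. Every member at 1 CPM or more in both libraries was named with its value in each, and of each pathway list at most the 2 genes with the highest CPM. The other T cell and thymic epithelial genes, and neighbouring genes that overlap or adjoin a member, were named after their values were seen. Cell type markers are given as sums, and for pancreas as 2 genes. For kidney, spleen, gonad, forebrain and eye, and intestine the gene with the highest CPM was added after values were seen. The values of 1 member and the helix sequences of some others are not reported here.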

Additional observations from a re-analysis of the deposited data

How the results depend on the processing

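No forkhead gene was called between the labels with RLE or upper-quartile factors, no filter, a filter of 1 CPM in 2 columns, DESeq2, limma-voom or the replicate block, a term for the shared number, and the largest absolute log2 fold of a member stayed between 0.0140, with the replicate block, and 0.0163, with limma-voom. Leaving out 1 column also called 0 members, the spread of a lone column being taken from the other group, and gave a largest absolute log2 fold of 0.600 to 0.947, for Foxe1, because the remaining columns then hold the libraries in unequal numbers. Over the whole table, 6 of 19987 genes were called with the replicate block, 3 with DESeq2, 1 or 2 with a column left out, and 0 with edgeR under the remaining settings and with limma-voom. The summed level of 1637 CPM became 1974 CPM without structured and ribosomal RNA genes in the library size, 1626 CPM from the Fgf9_null columns alone and 1648 CPM from the Fgf9_het columns alone. Without structured RNA, levels were 1.21 times as high for the 23 members at 1 CPM. The number of members at 1 CPM stayed at 23 in the 4 settings. The count of members beyond 1.5-fold between the libraries was 1, Foxj1, under each scaling, 3 beyond 0.32 on the log2 scale, 0 at 2-fold and 0 among members at 5 CPM. Of the 10 highest members per kilobase, 9 stayed with the longest coding transcript and 8 with the median one. Genes close to 3 counts are limited by depth, and every comparison rests on 2 libraries.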
